A study of Caenorhabditis elegans with 12 samples.

Results

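The comparison described here sets Caenorhabditis elegans animals that lack the microRNA gene mir-58 alone (strain MT15024, genotype mir-58(n4640) IV) against wild-type animals (strain N2 Bristol). It was made of the 3 samples titled mir-58 and the 3 titled Wild Type, 6 of the 12 samples of the series, and it covers all 16309 genes listed. RNA came from whole animals at the late L4 stage, the last larval stage, and both groups were collected 33 h after larvae were moved to food, when the vulva had the shape of that stage. The animals were fed bacteria carrying light lysine and arginine and were synchronised by bleaching. The other mutants of the series also carry mir-58(n4640). The double mutant (strain MT18409) adds nDf53 III, which removes mir-80, and the quadruple mutant (strain MT15563) adds nDf53 III and nDf54 X, which removes mir-81 and mir-82. They develop slowly and were collected 6 h and 15 h after wild type, so their values are given only beside those of mir-58. Each genotype is 1 strain, and each sample pooled many animals.

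MicroRNAs are short RNAs that guide an Argonaute protein to partly matching sites, mostly in the 3' untranslated regions of mRNAs, and thereby lower translation and mRNA stability. Pairing rests on the seed near the 5' end of the microRNA. The members of the miR-58 family share their seed, which they also share with bantam of Drosophila, and miR-58 is among the most abundant microRNAs of the worm. Loss of a single member is known to leave animals largely normal, whereas loss of several gives small, slow-growing animals with defects in egg laying and dauer formation.

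Each gene had a log2 fold change of mir-58 over wild type and an adjusted p-value, both from the authors' own comparison. A gene was called higher or lower where the adjusted p was under 0.05 in the authors' deposited table, and "rose" and "fell" are used of called genes. No level per sample was analysed here, so the spread between replicates and the depth of each sample are unknown, and the labels do not say whether replicates were separate cultures. The p-values then cover only the spread among these samples, which could be technical. A change of a gene with few reads can be told from one with many only through its adjusted p. In whole animals, fewer cells of a type and less RNA per cell cannot be told apart.

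More genes were lower than higher in mir-58. Of the 16309 genes, 1214 (7.44%) were called, 945 lower (5.79%) and 269 higher (1.65%). The lower calls were also the larger ones, with a median log2 fold change of -1.53 against 1.02 among higher calls. The median over all genes was -0.06, with quartiles at -0.34 and 0.25. The smallest change called was 1.41-fold. Of 657 genes listed as at least 4-fold lower, 401 (61%) were called, and of 168 listed as at least 4-fold higher, 47 (28%) were called. Among genes listed at least 16-fold away, all 62 lower and all 5 higher ones were called.

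**Figure D1:**
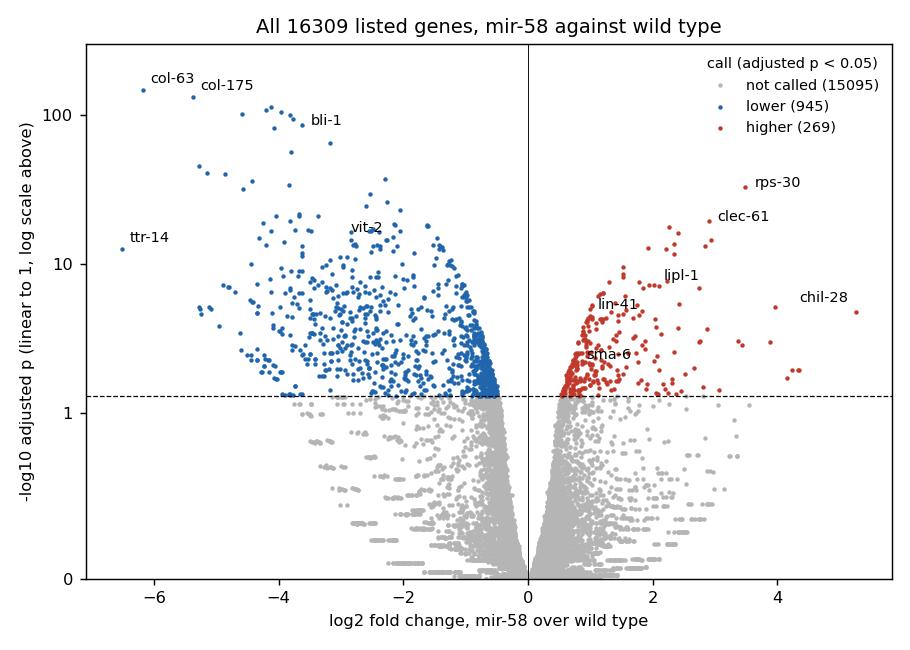
Each point is 1 of the 16309 genes, with the log2 fold change of mir-58 over wild type on the x axis and -log10 of the adjusted p on the y axis, which is linear to 1 and logarithmic above. The 945 lower genes (blue) reach -6.51 (ttr-14) and the 269 higher genes (red) reach 5.26 (chil-28), and the dashed line marks an adjusted p of 0.05.

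The genes around mir-58 were examined first, because the microRNA itself is not among the genes listed and its loss was not measured. The gene that overlaps mir-58 in the annotation, Y67D8A.2 on chromosome IV, stood at 0.10 in the authors' deposited table (adjusted p = 1). Of the 5 nearest listed genes on either side, 1 was called. This was T26C12.1, at 0.68 in the authors' deposited table (adjusted p = 0.00907). The remaining 9 were not called and lay between -0.49 (Y67D8B.2) and 1.06 (T23E1.1) in the authors' deposited table.

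The series asks how targets of the family respond to loss of its members. Of 6 listed genes that have been reported as targets, 1 rose in mir-58 and none fell, and all 6 had values above 0. The gene that rose was sma-6, for the type I receptor of body size signalling by TGF-beta, which was 1.73-fold higher in the authors' deposited table (adjusted p = 0.00767). The p38 kinase gene pmk-2 stood at 0.63 in the authors' deposited table and missed the threshold (adjusted p = 0.111). Neither the type II receptor gene daf-4 (0.40, adjusted p = 0.252) nor the dauer type I receptor gene daf-1 (0.32, adjusted p = 0.45) was called in the authors' deposited table. The transcriptional coactivator gene cbp-1 was at 0.23 and the ligand gene dbl-1 at 0.05 in the authors' deposited table, neither of them called. The list, chosen like the others with earlier results of these data known, had a median of 0.36, against -0.06 over all genes. All 11 listed genes of the p38 pathway and all 12 of the insulin receptor pathway were likewise above 0, at medians of 0.32 and 0.20, with no call in either list.

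In the body size pathway, the ligand DBL-1 signals through SMA-6 and DAF-4 to the Smads SMA-2, SMA-3 and SMA-4. Of its 13 listed genes, which do not include sma-3, sma-6 was the only one called. Neither the Smad gene sma-4 (0.46) nor the Smad cofactor gene sma-9 (0.47) was called in the authors' deposited table (adjusted p of 0.184 and 0.147). The glypican gene lon-2, a negative regulator of the ligand, was the lowest member at -0.55 in the authors' deposited table (adjusted p = 0.104). In the dauer branch 1 of 8 genes was called, daf-12, a nuclear hormone receptor gene downstream of the pathway, at 0.58 in the authors' deposited table (adjusted p = 0.0339). The ligand gene of this branch, daf-7, and the Smad gene daf-14 both stood at 0.40 in the authors' deposited table and were not called.

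In the double mutant 16.4% of all genes were called (10.5% higher and 5.86% lower), and in the quadruple mutant 24% (14.2% higher and 9.82% lower). The authors' deposited table has sma-6 called higher in both, at 1.46 and 2.14 (adjusted p of 5.43e-07 and 7.13e-15). The authors' deposited table has the negative regulator lon-2 at -1.07 and -0.87 in these mutants, called lower in both (adjusted p of 0.00406 and 0.0185). For daf-12 it gives -0.08 and -0.14, not called in either (the authors' deposited table, adjusted p of 0.94 and 0.783). The 3 comparisons share the wild-type samples, and differences between mutants were not tested.

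**Figure D2:**
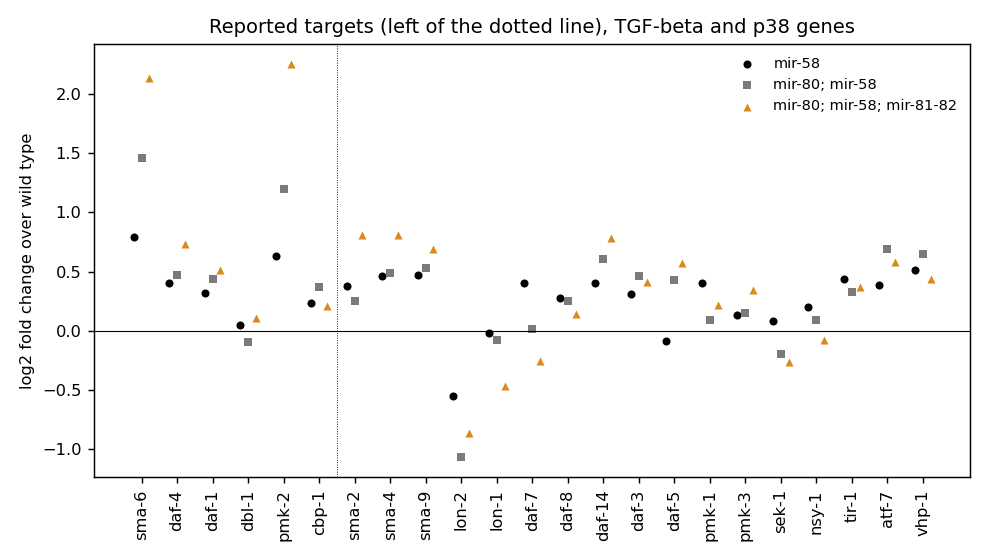
Log2 fold change over wild type of the 6 reported targets (left of the dotted line) and of further TGF-beta and p38 genes, in mir-58 (circles), the double mutant (squares) and the quadruple mutant (triangles). In mir-58 the highest gene is sma-6 at 0.79 and the lowest is lon-2 at -0.55.

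Genes for collagens of the cuticle, the coat that is rebuilt at each moult, were most of the 10 calls with the smallest p-values. Of 148 listed col genes, which encode cuticle collagens, 80 fell (54.1%, against 5.79% of all genes) and 1 rose. The list had a median of -0.85 with quartiles at -1.61 and -0.42, and 131 members had values below 0. A change of at least 2-fold was reached by 54 of the lower genes. The smallest p-value of the comparison belonged to col-63, which was 72.5-fold lower in mir-58 (-6.18, adjusted p = 3.80e-148) in the authors' deposited table. It was followed in the authors' deposited table by col-175 (-5.38), E01G4.6 (-4.12), col-112 (-4.21), col-38 (-3.96), rol-1 (-4.58), col-71 (-3.82), col-138 (-3.77), bli-1 (-3.63) and col-49 (-4.08). The collagen gene that rose, col-101, stood at 1.46 in the authors' deposited table and was chosen after its values were seen. Some col genes are near-identical copies, so how reads were shared among them is uncertain.

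Collagens known from their shape mutants were counted in a pair of lists, which do not hold the roller gene rol-1 given above. None of the 6 furrow collagens, which mark the circumferential furrows of the cuticle, was called. The authors' deposited table has them between -0.35 (dpy-9) and 0.07 (dpy-2). Of 13 other shape collagens 3 fell. The blister genes bli-1 and bli-2, whose products form the struts of the adult cuticle, were 12.4-fold and 9-fold lower in the authors' deposited table (adjusted p of 6.60e-87 and 4.78e-66). The third, dpy-5, was at -0.65 in the authors' deposited table (adjusted p = 0.0403). The remaining 10, among them sqt-3 and rol-6, lay in the authors' deposited table between -0.42 and 0.08 and none was called.

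Enzymes that modify and cut collagen gave 3 lower calls in 14 genes (21.4%, against 5.79% of all genes). The prolyl 4-hydroxylase subunit gene dpy-18 stood at -0.53 and its relative phy-3 at -2.73 in the authors' deposited table (adjusted p of 0.0415 and 0.021). The third was bli-5, a protease inhibitor gene, at -0.75 in the authors' deposited table (adjusted p = 0.049). At a threshold of 0.01 none of the 3 was called. Among 34 cuticlin genes, which encode non-collagenous cuticle proteins, 2 fell (5.88%) and 1 rose (2.94%), near the 5.79% and 1.65% of all genes, and cut-1 was 11.2-fold lower in the authors' deposited table (adjusted p = 4.71e-05). The other lower call was cutl-18 at -0.84 and the higher one cut-6 at 0.92, both with adjusted p above 0.01 in the authors' deposited table. Of 54 hedgehog-related genes 6 fell (11.1%, against 5.79% of all genes) and 2 rose (3.7%, against 1.65%). Among the lower ones, grl-19 was at -4.28, grl-25 at -3.42 and grl-17 at -2.13 in the authors' deposited table. The glutamine- and asparagine-rich pqn and abu genes, many of which belong to the pharyngeal cuticle, gave 12 lower calls in 74 genes (16.2%) and no higher one. The 4 with the smallest p-values were abu-6 at -1.28, pqn-54 at -0.91, abu-11 at -0.95 and pqn-5 at -0.90 in the authors' deposited table. At a threshold of 0.01 the lower calls were 6 for the pqn and abu genes and 2 for the hedgehog-related genes, with no higher call in either, and at 2-fold they were 3 and 3.

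Moulting and apical matrix genes as a list were nearly level. Of 25 listed, 2 fell (8%, against 5.79% of all genes) and 1 rose (4%, against 1.65%) at a median of 0.10. The genes were bli-1, already described, sym-1 at -0.51 (adjusted p = 0.0311) and the megalin-related endocytic receptor gene lrp-1 at 0.99 (adjusted p = 9.79e-06) in the authors' deposited table. None of the 27 patched-related genes was called. Of 19 genes of vulval induction none was called, and the list median was 0.07. Of 51 transthyretin-related genes 2 fell (3.92%, against 5.79% of all genes). Both changes were large, with ttr-14 at -6.51 and ttr-34 at -3.13 in the authors' deposited table.

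The 3 lowest list medians were those of sperm genes. L4 hermaphrodites make their sperm before the gonad switches to oocytes. Over the 4 sperm lists, 32 of 62 genes fell (51.6%), none rose, and 61 had values below 0. All 5 genes for sperm-specific phosphatases and chromatin proteins fell. The phosphatase genes were 15.6-fold (gsp-4) and 12.4-fold (gsp-3) lower in the authors' deposited table. The authors' deposited table has the sperm chromatin genes spch-1, spch-2 and spch-3 at -3.73, -3.43 and -2.83. Of 16 major sperm protein genes, the cytoskeletal and signalling proteins of nematode sperm, 11 fell at a median of -3.45, with msp-81 at -4.89, msp-36 at -4.81 and msp-64 at -4.80 in the authors' deposited table. These are near-identical copies too. Without them 21 of 46 sperm genes fell. Of 16 genes of the ssp, ssq, sss and smz families 10 fell at a median of -2.72, among them ssp-16 at -3.92 and ssq-2 at -3.63 in the authors' deposited table.

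Genes found through sperm-defective mutants, which act at many steps of sperm formation, had a median of -0.71. Of 25 listed 6 fell and none rose. They included spe-11, a sperm-supplied factor for the embryo, at -3.66, and spe-18 at -2.51 in the authors' deposited table. The gene fer-1, needed for membrane fusion in the maturing sperm, stood at -1.94 and spe-46 at -1.87 in the authors' deposited table. Of 20 germline Argonaute and small RNA genes 2 fell, alg-3, which acts in spermatogenesis, at -1.87 and wago-1 at -0.52 in the authors' deposited table (adjusted p of 9.32e-06 and 0.0352). Further families, picked after their values were seen, were low too. These were the nspd genes (4 of 5 fell), the ttbk kinase genes (4 of 7) and the snf genes for sodium-coupled transporters (5 of 12, with 1 higher). The lowest called members of each were nspd-1 at -3.67, ttbk-8.2 at -4.45 and snf-4 at -3.95, all in the authors' deposited table. Of 19 regulators of the choice between sperm and oocyte 3 fell, each by less than 2-fold. They were fog-3, which commits germ cells to sperm, at -0.71, the PUF repressor gene fbf-2 at -0.67 and nos-3 at -0.63 in the authors' deposited table (adjusted p of 0.037, 0.0209 and 0.00576).

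Oocyte and yolk genes also gave lower calls. Of 5 vit genes, which encode the yolk proteins made in the adult intestine, 4 fell. They were vit-6 at -2.26, vit-2 at -2.17, vit-1 at -1.15 and vit-3 at -3.36 in the authors' deposited table. The uncalled vit-4 was at -1.17 there (the authors' deposited table, adjusted p = 0.66). Among 14 eggshell and egg activation genes 5 fell and 13 had values below 0. The permeability barrier genes perm-4 and perm-2 were 18.4-fold and 13.8-fold lower in the authors' deposited table (adjusted p of 4.19e-14 and 3.28e-06). The chitin-binding proteoglycan genes cpg-1 and cpg-2 and the vitelline layer gene cbd-1 fell by less, to -0.86, -0.70 and -0.57 in the authors' deposited table (adjusted p of 0.00138, 0.0172 and 0.0323). At a threshold of 0.01 the called members were 3 of 14.

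Of 21 RNA-binding regulators of the oocyte 5 fell and 1 rose, at a median of -0.63. The CCCH zinc finger genes mex-6 and mex-5 were 2-fold and 1.75-fold lower, and the nanos-related gene nos-2 4-fold lower, in the authors' deposited table (adjusted p of 0.0038, 0.00102 and 0.00322). The gene that rose was lin-41. Genes of meiotic pairing and recombination fell in 5 of 27 cases, all by less than 2-fold. Those with the smallest p-values were the synaptonemal complex genes syp-1 (-0.84) and syp-4 (-0.73) and the axis genes him-3 (-0.70) and htp-2 (-0.75) in the authors' deposited table. With the threshold at 0.01, 3 oocyte regulators and 2 meiotic genes were called lower. P granules, the RNA-rich granules of germ cells, gave 5 lower calls in 11 genes, also below 2-fold, and 1 of them at a threshold of 0.01. They were pgl-3 at -0.97, glh-4 at -0.66, deps-1 at -0.63, glh-1 at -0.56 and pgl-1 at -0.55 in the authors' deposited table. Among 21 DNA replication genes and 26 cyclin and cyclin-dependent kinase genes none was called, at medians of 0.04 and -0.15.

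**Figure D3:**
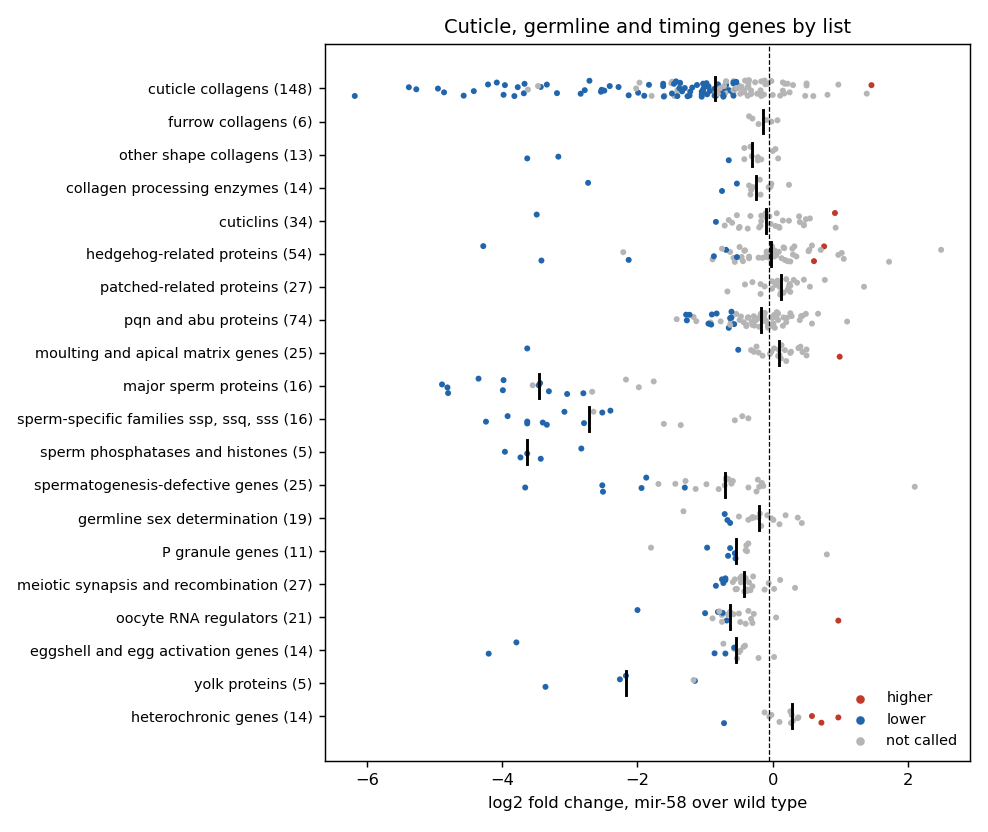
Log2 fold change of mir-58 over wild type for each member of 20 cuticle, germline and timing lists (number of listed genes in parentheses), with black bars at the list medians and a dashed line at the median of all genes, -0.06. The 4 sperm lists lie at medians between -3.63 and -0.71 and the furrow collagens at -0.15, while the cuticle collagens spread over -6.18 to 1.46.

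The heterochronic genes set the order of larval cell fates and the change from larva to adult. Of 14 listed 3 rose and 1 fell. The larval regulators lin-41, which also stands on the oocyte list, and hbl-1 were 1.96-fold and 1.65-fold higher in the authors' deposited table (adjusted p of 4.27e-05 and 0.0285), and daf-12 is described above. The gene that fell was mab-10, a cofactor of the adult-promoting factor LIN-29, at -0.72 in the authors' deposited table (adjusted p = 0.00183). The uncalled genes included lin-14 at 0.37, lin-28 at -0.05, lin-29 at 0.27 and lin-42 at 0.26 in the authors' deposited table. At a threshold of 0.01, lin-41 and mab-10 were called.

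Sperm, yolk and eggshell genes had medians of opposite sign in the mutants that were collected later. The major sperm protein genes had a median of -3.45 in mir-58, 4.55 in the double mutant and 4.43 in the quadruple mutant. For yolk genes the medians were -2.17, 1.70 and 0.89, and for eggshell genes -0.55, 0.93 and 0.86, in the same order. The col genes had medians below 0 in each, at -0.85, -0.37 and -0.29, but single genes differed in sign. All col genes among the 10 calls with the smallest p-values were above 0 in both later mutants. The authors' deposited table has col-63 at 2.66 in the double mutant and 2.51 in the quadruple mutant, and col-175 at 1.89 and 1.79. By contrast, col-167, col-168, col-169 and col-170 were below 0 in both, with col-170 at -1.53 and -2.16 in the authors' deposited table. For mab-10 the authors' deposited table gives 0.74 and 0.85. For lin-41 the authors' deposited table gives -0.01 and -0.24, not called in either. Genotype and time of collection cannot be told apart in these mutants, and only mir-58 was collected at the same hour as wild type. Sperm, yolk and cuticle transcripts are known to change in the course of the L4 stage. The part of any difference in stage within late L4 in these values was not tested.

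Higher calls were spread over many groups. Of 27 genes for the release of transmitters and neuropeptides 5 rose (18.5%, against 1.65% of all genes) and none fell, and 26 had values above 0 at a median of 0.43. The authors' deposited table has the vesicle kinesin gene unc-104 at 1.02, the presynaptic ubiquitin ligase gene rpm-1 at 0.96, the vesicle priming gene unc-13 at 0.89 and the dense-core vesicle gene unc-31 at 0.79 (adjusted p of 4.85e-05, 8.96e-04, 3.29e-04 and 0.0233). At a threshold of 0.01 the count was 3, and 1 gene reached 2-fold. Of 147 neuronal ion channel genes 3 rose (2.04%, near the 1.65% of all genes) and none fell, at a median of 0.25. None of the 3 was called at a threshold of 0.01, and none reached 2-fold. They were the potassium channel genes twk-11 at 0.90 and slo-2 at 0.66 and the calcium channel gene egl-19, also active in muscle, at 0.59 in the authors' deposited table. None of 17 genes of transmitter synthesis and loading was called, at a median of 0.25.

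Other neuronal lists also had medians above 0 with few calls. Of 100 neuropeptide genes 81 had values above 0 and the only call was lower, nlp-34, an antimicrobial peptide gene of the epidermis, at -0.98 in the authors' deposited table (adjusted p = 9.86e-04). The 530 genes listed as chemoreceptors by their names had a median of 0.27. They gave 2 higher calls (0.377%, against 1.65% of all genes) and 1 lower (0.189%, against 5.79%). The higher ones were sri-70 at 3.88 and srg-31 at 1.69 in the authors' deposited table. The lower one, srdh-1 at -0.68 in the authors' deposited table, entered the list by its name only and is not a chemoreceptor gene. Among 31 cilium genes, at a median of 0.41, che-3, a dynein motor gene of ciliary transport, rose to 0.99 and dyf-13, a ciliary transport gene, fell to -1.16 in the authors' deposited table (adjusted p of 0.028 and 0.00421). For dyf-13 the authors' deposited table gives -2.24 for the double mutant and -8.35 for the quadruple mutant. Outside the neuronal lists, the 229 nuclear hormone receptor genes stood at a median of 0.28. Of these 4 rose (1.75%, near the 1.65% of all genes) and 3 fell (1.31%, against 5.79% of all genes). The lower ones were nhr-235 at -2.25, nhr-265 at -1.95 and nhr-234 at -1.66, all in the authors' deposited table. Of 54 ceh homeobox genes the only call was ceh-92 at -0.71 in the authors' deposited table (adjusted p = 0.042).

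Basement membrane and adhesion genes rose in a few cases. Of 18 basement membrane genes 3 rose and none fell. They were the laminin alpha chain genes lam-3 and epi-1 at 1.26 and 0.73 and him-4, the gene of hemicentin, at 0.66 in the authors' deposited table (adjusted p of 4.27e-05, 0.00564 and 0.011). The cadherin family, picked after its values were seen, had 3 of 10 listed cdh genes higher, with cdh-4 at 1.52, cdh-6 at 1.18 and cdh-5 at 0.70 in the authors' deposited table. Of 30 muscle sarcomere genes 6 fell and 1 rose, all by less than 2-fold, among them the troponin genes tnt-2 at -0.70 and tni-1 at -0.68, the troponin gene unc-27 at -0.59 and the higher call, the twitchin gene unc-22, at 0.67 in the authors' deposited table. At a threshold of 0.01 there were 2 lower calls and no higher one.

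Lysosomal lipases, which release fatty acids from stored lipid, gave 3 higher calls in 7 genes. The authors' deposited table has lipl-1 4.08-fold and lipl-2 3.61-fold higher in mir-58 (adjusted p of 6.23e-08 and 1.28e-07), and lipl-5 at 0.68 (adjusted p = 0.0159). Fatty acid desaturases and elongases, which build and desaturate fatty acids, gave 3 lower calls in 16 genes and no higher one. They were elo-7 at -2.43, elo-6 at -0.75 and the delta-9 desaturase gene fat-7 at -0.60 in the authors' deposited table. Of 61 acyl-CoA synthetase and beta-oxidation genes 5 fell (8.2%, against 5.79% of all genes), among them acs-18 at -4.09, acs-10 at -3.67 and acdh-8 at -3.46 in the authors' deposited table. The acyl-CoA synthetase gene acs-2 fell to -0.75 in the authors' deposited table (adjusted p = 9.88e-04). The cystathionine beta-synthase gene cbs-2 stood at -2.78 and the proteasome subunit gene rpn-6.2 at -1.09 in the authors' deposited table, while the medians of their lists, methionine metabolism and proteasome, were -0.23 and -0.24. For the double mutant the authors' deposited table gives acs-10 at 3.48, acdh-8 at 3.72, elo-7 at 2.73, cbs-2 at 2.44 and rpn-6.2 at 0.71, against -2.15 for acs-2 and -1.77 for elo-6.

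Intestinal fate and brush border genes gave 2 lower calls (9.09%, against 5.79% of all genes) and 1 higher call (4.55%, against 1.65%) in 22. Their median was -0.03. The metallothionein gene mtl-2 stood at -1.01, the intermediate filament gene ifd-2 at -0.66 and the P-glycoprotein gene pgp-1 at 1.02 in the authors' deposited table. The aspartyl protease gene asp-12 was 4.14-fold lower in mir-58 in the authors' deposited table (adjusted p = 8.49e-24). None of 20 genes of the vacuolar proton pump and none of 16 glycolysis genes was called. Genes of the respiratory chain and of mitochondrial ribosomes had 1 lower call each in 36 and 63 genes (2.78% and 1.59%), at medians of -0.19 and -0.28.

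C-type lectins gave 13 higher calls (7.98%, against 1.65% of all genes) and 10 lower calls (6.13%, against 5.79% of all genes) in 163 genes, with a median of 0.08. The lower share was near that of all genes. Among those with the smallest p-values, clec-61 stood at 2.90 and clec-42 at 1.93, and clec-123 at -4.32 and clec-47 at -1.52, in the authors' deposited table. Of 40 lysozyme, saposin-like and thaumatin-like genes 4 rose (10%) and 2 fell (5%, near the share of all genes), with thn-2 2.87-fold, lys-2 2.3-fold and lys-7 2.17-fold higher and lys-5 3.63-fold lower in the authors' deposited table. Of 17 epidermal antimicrobial peptide genes nlp-34 was the only call. Single members were called in some large families. The chitinase-like gene chil-28 was the highest of all called genes at 5.26 in the authors' deposited table (adjusted p = 1.55e-05). None of the 26 other listed members of its list was called. Of 30 insulin-like peptide genes ins-16 and ins-33 rose, to 4.15 and 0.87 in the authors' deposited table (adjusted p of 0.0194 and 0.00723). In the double mutant ins-33 stood at -1.21 in the authors' deposited table (adjusted p = 0.0125).

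Among 77 genes of the cytosolic ribosome there were 19 lower calls (24.7%, against 5.79% of all genes) and 6 higher calls (7.79%, against 1.65%). The list median was -0.35, and 11 of the lower calls reached 2-fold. The calls with the smallest p-values lay far apart, at 3.49 for rps-30, 2.93 for rpl-19 and 2.40 for rps-25 against -2.26 for rps-9 in the authors' deposited table. How the authors' counting treated reads shared with copies of these genes is not given in the sources used here, so single values are uncertain. In the microRNA pathway 1 of 19 genes was called, dcr-1, the Dicer gene that cuts microRNA precursors, at 0.63 in the authors' deposited table (adjusted p = 0.0237). Of 44 heat shock and DnaJ genes 2 fell (4.55%, against 5.79% of all genes). They were the endoplasmic reticulum chaperone genes hsp-4 and hsp-3, at -0.62 and -0.61 in the authors' deposited table (adjusted p of 0.00753 and 0.0298). Among 15 genes of apoptosis and engulfment the only call (6.67% of the list) was crn-1 at -0.56 in the authors' deposited table (adjusted p = 0.0409). Of 32 histone genes 2 fell (6.25%, near the 5.79% of all genes), the histone H3 variant genes his-70 (-2.44) and his-74 (-0.61) in the authors' deposited table. None of 9 embryonic patterning genes was called. Of 8 male-associated genes 1 fell, mab-3 at -0.78 in the authors' deposited table (adjusted p = 0.0499).

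Most of the detoxification and protein turnover lists that follow had a few calls in both directions, at list medians near that of all genes. Over all genes 1.65% were higher and 5.79% lower. Of 69 cytochrome P450 genes 3 rose (4.35%) and 1 fell (1.45%), with cyp-35B1 at 1.91 and cyp-42A1 at 0.91 in the authors' deposited table. Of 64 glucuronosyltransferase genes 2 rose (3.12%) and 2 fell (3.12%), with ugt-18 at 1.68 the largest in the authors' deposited table. Of 47 glutathione S-transferase genes 1 rose (2.13%) and 2 fell (4.26%), each by less than 2-fold. Among them was gst-4, a known reporter of oxidative stress signalling, at -0.64 in the authors' deposited table. Of 11 superoxide dismutase, catalase and peroxiredoxin genes sod-3, a known target of insulin signalling, was the only call at 0.80 in the authors' deposited table (adjusted p = 0.0372). F-box genes, which encode substrate receptors of ubiquitin ligases, gave 5 higher calls (2.48%) and 7 lower calls (3.47%) in 202 genes. They ran from fbxa-136 at 3.96 to fbxa-202 at -3.87 among those with the smallest p-values in the authors' deposited table. Of 87 genes with MATH or BTB domains 5 rose (5.75%) and 1 fell (1.15%), with math-38 at 2.04 and btb-2 at -3.81 in the authors' deposited table. Split by name after the values were seen, all 5 higher calls were among 35 math genes, at a median of 0.35. The 36 bath genes had no call at a median of -0.37, and 16 btb genes had the lower call at a median of -0.14. Astacin metalloprotease genes gave 1 higher and 1 lower call in 31 (3.23% each), nas-3 at 1.44 and nas-30 at -0.56 in the authors' deposited table.

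**Figure D4:**
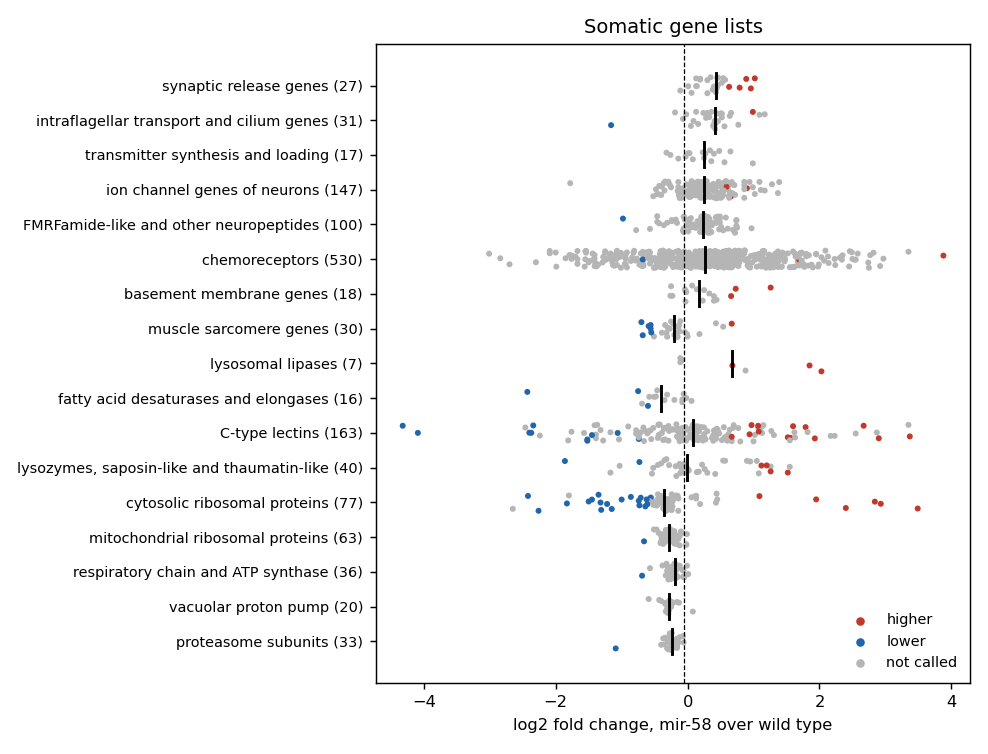
Log2 fold change of mir-58 over wild type for each member of 17 neuronal, muscle, metabolic, immune and housekeeping lists, with black bars at the list medians and a dashed line at the median of all genes. Synaptic release genes lie at a median of 0.43 with 5 higher calls, whereas the vacuolar pump and proteasome genes lie close together at -0.28 and -0.24.

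The calls were uneven along the genome. Of genes matched to the annotation, 8.45% of 2556 on chromosome IV were lower and 3.4% of 2233 on the X chromosome, against 5.91% of all matched genes. Without the col and major sperm protein genes the shares were 7.56% on IV and 2.94% on X. Other sperm genes, among them spch-1, ssq-2 and ssq-4 on IV, were not taken out. Chromosome V had the highest share of higher calls, 2.31% of 3419 genes, and chromosome III the lowest, 0.964% of 2281. Neighbouring genes were sometimes called together. Of listed protein-coding genes in chromosome order, 17 runs of 3 or more adjacent genes were all lower and 1 run was all higher, an arrangement looked for after the data were seen.

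The longest runs held collagen or sperm genes. On chromosome I a run of 5 lower genes comprised ZK484.7, nspd-1, spch-3, T27A3.5 and the sperm gene ssp-16, at -2.54, -3.67, -2.83, -2.59 and -3.92, as given in the authors' deposited table. A run of 5 on chromosome II held the collagen genes col-79, col-39, col-80 and bli-1 together with C09G5.7, at -2.13, -0.80, -1.26, -3.63 and -1.75, as given in the authors' deposited table. On the X chromosome col-167, col-168, col-169 and col-170 were neighbours at -0.54, -0.73, -0.58 and -1.05, as given in the authors' deposited table.

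Calls also differed with gene length, which was examined after the data were seen. The median exonic length was 1857 bases for the 243 higher protein-coding genes, 1120 bases for the 904 lower ones and 1311 bases for all 15226 listed. Protein-coding genes were put in 5 classes of equal number by exonic length. In the longest class (2200 bases or more), 3.45% were higher and 3.02% lower. In the class from 800 to 1137 bases, 0.622% were higher and 8.15% lower. The median log2 fold change was -0.22 in the shortest class and 0.08 in the longest. Synaptic release genes had a median exonic length of 3430 bases and cuticle collagens 1020 bases, and the part of length in the values of either list was not tested.

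**Figure D5:**
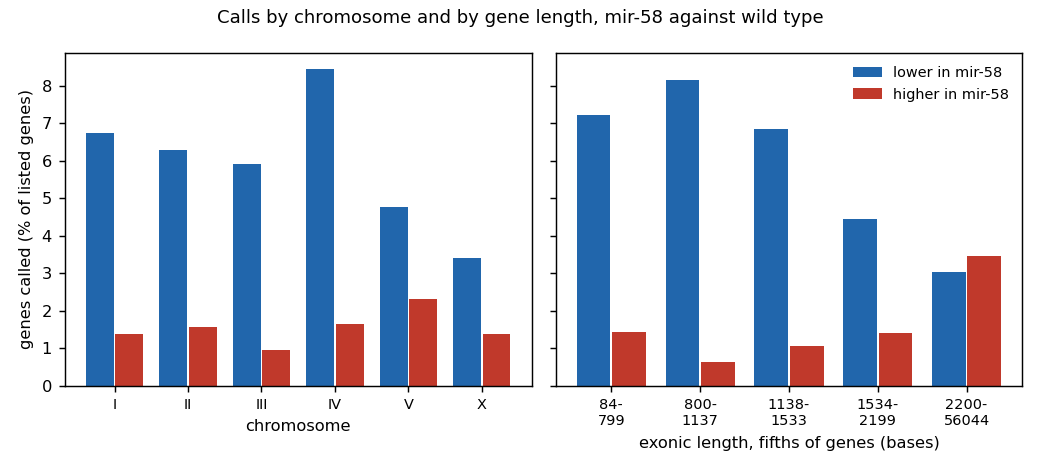
Share of listed genes called lower (blue) and higher (red) in mir-58, in percent, by chromosome and by 5 classes of exonic length in bases. Lower calls range from 3.4% on the X chromosome to 8.45% on IV, and the longest class is the only one in which higher calls (3.45%) exceed lower calls (3.02%).

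The extremes of the comparison included genes without a functional name. Besides ttr-14, col-63, col-175 and col-60, the authors' deposited table has among its lowest calls ZK1053.6 (-5.28), F25H5.8 (-5.26), F07D3.3 (-5.24), dao-4 (-5.15), Y55B1AR.4 (-5.12), C36E6.8 (-5.09) and col-70 (-4.95). Next to chil-28 and ins-16, the highest calls in the authors' deposited table included the F-box gene fbxa-12 (4.24), the uncharacterised genes H31B20.1 (4.33) and B0507.6 (4.35), F07C4.12, annotated as a pseudogene (3.43), and clec-9 (3.37). Their adjusted p-values reached 0.0194 for ins-16, against 6.94e-34 for rps-30 at a smaller change, in the authors' deposited table.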

How the data were processed

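RNA of whole late L4 animals was sequenced as standard Illumina libraries, per the labels' protocols. The deposited values are log2 fold changes of each mutant over wild type and adjusted p-values, which the authors computed, per the file headers. The submitters' processing notes name DESeq but no version of it. For the aligner, the counting, the genome build and the p-value adjustment, nothing is given in the sources used here. Depth per sample is unknown, so no replicate error or interval can be given. With no counts, the planned count test and its alternatives (the replicate block, leave-one-out and other normalizations) were not run.

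A gene was called where the authors' adjusted p was under 0.05. Alternatives were 0.01, 0.1, and at least 1.5-fold or 2-fold. Names were matched to the genes of Ensembl release 115 (WBcel235) by symbol or by sequence name, ignoring case. Of 16309 names 15515 matched, 794 did not, and 20 shared a gene. The annotation served for names, chromosomes, order and exonic length. Seed matches and sequences are not shown, because no sequence was used here. The 70 lists are described by counts and medians beside those of all genes, with no set test. Members and lists were chosen with earlier results of these data known. Named genes are those around mir-58, the reported targets, the 15 highest, 15 lowest and 10 of smallest p (a part of each is printed), up to 4 called members per list, and members of lists of up to 15. List counting was tested on simulated data with planted calls. Python 3.11.15, numpy 2.4.6, pandas 2.3.3 and matplotlib 3.10.9 were used.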

Additional observations from a re-analysis of the deposited data

How the results depend on the processing

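With an adjusted p under 0.01, 753 genes were called (148 higher and 605 lower), and with a change of at least 2-fold 722 (142 higher and 580 lower), against 1214 (269 and 945) at 0.05 alone. The share of calls that were lower was 80.3% under either. A threshold of 0.1 (1655 genes), a change of at least 1.5-fold (1131) and restriction to names that match 1 gene each (1165, chosen after seeing the data) kept each count within 1.5 times. Of the 329 calls on the lists, 217 passed 0.01 and 190 passed 2-fold. Among the counts of higher or lower members per list, 43 moved by over 1.5 times at 0.01 and 97 did not. At 2-fold 53 moved and 87 did not. Every such change is a drop, because these settings only remove calls. A count of 0 could therefore not move, and many counts were 0 from the start. No paired analysis was possible because the deposited table holds no values per sample, and for that reason no replicate was left out and no other normalization was tried. Depth is unknown, so a gene that was not called may have been too sparsely covered to be called.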
